A study of Mus musculus with 18 samples.

Results

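The miRNAs mmu-miR-224-5p, mmu-miR-224-3p, mmu-miR-452-5p and mmu-miR-452-3p are the 4 mature products of 2 hairpins that lie in 1 intron of Gabre, the gene of the epsilon subunit of the GABA-A receptor. These 4 of the 1359 mature miRNAs listed over the whole series were taken by name. They were chosen by measured values: miR-224-5p was picked because it was abundant in mouse embryonic fibroblasts (MEF) and lower in MEF in which miR-17~92 is deleted. No numeric limit was set in that choice. Values of deleted against floxed MEF are therefore given as a description, without a test, and the same holds for miR-224-5p in overexpressing against floxed MEF, since the floxed libraries are shared.

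Small RNAs were sequenced from 18 samples in 8 groups, all labelled with the strain Eu-myc mice; in the Eu-myc transgene an immunoglobulin enhancer drives Myc in B cells. In spleen B cells miR-17~92 was either floxed and intact, called fl/fl, or lost, called d/d, or raised above its own level, called OV, with 1 sample per group. MEF carried the same 3 states with 3 samples per group. A second MEF set was d/d throughout and carried either an empty plasmid (d/d + Empty, 3 samples) or overexpressed miR-290~295 (d/d + miR-290~295, 3 samples). How miR-17~92 was overexpressed, the age of the animals, and whether the 3 samples of a group were separate cultures are not stated in the labels, so p-values measure only the spread between these samples.

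Reads on listed miRNAs numbered 17191892 to 24920911 per library in the first MEF set, 43164128 to 58911475 in the second and 10203586 to 10612256 in B cells. The miR-17~92 products summed to 74.65 to 99.74 RPM (reads per 1000000 reads on listed miRNAs) in d/d MEF, 3381 to 5115 in fl/fl MEF and 20914 to 23081 in OV MEF. In B cells they were at 3784 (d/d), 125575 (fl/fl) and 362982 (OV) RPM. The miR-290~295 products were at 30.28 to 42.54 RPM with Empty and 16414 to 18906 with miR-290~295. The defining fibroblast marker miR-214-3p was at 175.1 to 268.8 RPM in the 15 MEF libraries, and the blood marker miR-142a-5p at 0 to 1.664. In the B-cell libraries miR-142a-5p was at 5291 to 10743 RPM, while the mature B-cell marker miR-150-5p was nearly absent, at 1.04 to 6.219.

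A miRNA hairpin is cut from its primary transcript by Drosha and DGCR8 and then by Dicer, and usually 1 arm of the duplex is kept in an Argonaute protein while the other is degraded. The kept arm pairs with target mRNAs mainly through its seed, bases 2 to 8. The miR-224 and miR-452 hairpins are transcribed in the sense of their host gene; miR-224 is known as a TGF-beta-induced miRNA in mouse granulosa cells, where it targets Smad4, and it is often raised in human liver cancer.

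The 4 mature sequences are shown because their arms differ in level by orders of magnitude and their seeds are not shared; the seed is in capitals, 5′ to 3′, from RefSeq (GRCm38.p6).
mmu-miR-224-5p: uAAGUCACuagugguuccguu
mmu-miR-224-3p: aAAUGGUGcccuagugacuaca
mmu-miR-452-5p: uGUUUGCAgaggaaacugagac
mmu-miR-452-3p: uCAGUCUCaucugcaaagaggu
Of the 1738 mature mouse entries in that table, 0 others held the seed of any member. No pair of members shares a seed either, so each stands alone in its seed group.

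The hairpins show where both arms sit, with the mature arms in capitals. Mir224 lies at chrX:72261031-72261112 and Mir452 at chrX:72262224-72262308 (GRCm38, minus strand; coordinates are from the reference annotation, since the deposited tables hold none).
Mir224: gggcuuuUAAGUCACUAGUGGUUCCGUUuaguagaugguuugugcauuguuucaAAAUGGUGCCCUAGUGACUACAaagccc
Mir452: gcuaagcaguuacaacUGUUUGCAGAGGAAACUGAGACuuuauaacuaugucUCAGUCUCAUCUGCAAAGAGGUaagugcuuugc
The predicted minimum free energy of the Mir224 hairpin of 82 bases was -37.3 kcal/mol with 30 base pairs, and 17 of 21 bases of its 5p arm were paired. The Mir452 hairpin of 85 bases gave -40.0 kcal/mol with 31 base pairs, and 19 of 22 bases of its 5p arm were paired. Both 3p arms had 19 of 22 bases paired.

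Gabre spans 18805 bases on chromosome X, from 72255999 to 72274803 on the minus strand. Both hairpins are intronic: they lie in intron 6 of the transcript Gabre-201, which runs from 72258567 to 72262444 and is 3878 bases long. Along the transcript Mir452 comes first, 136 bases after exon 6, and Mir224 follows it after 1111 bases. Exon 7 begins 2464 bases beyond Mir224.

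**Figure D1:**
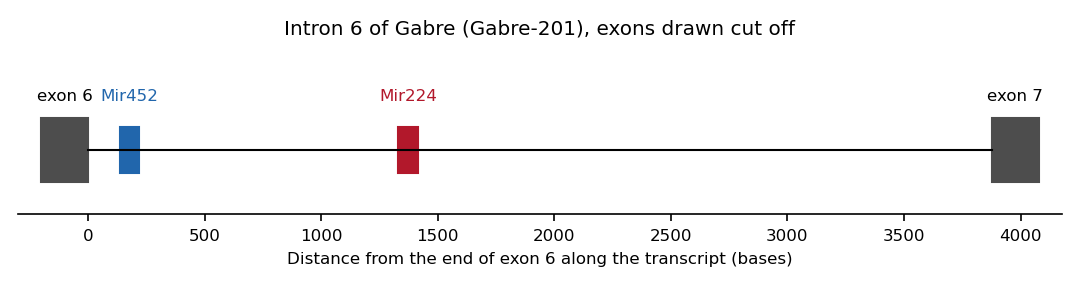
Map of intron 6 of Gabre, drawn to scale along the transcript, with the distance in bases from the end of exon 6 on the x axis. Both hairpins lie in the first part of the intron, Mir452 136 bases and Mir224 1332 bases after exon 6.

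The 5p arms carried nearly all reads of the locus in MEF. In fl/fl MEF the normalized count of miR-224-5p was 53148, 61619 and 56658 (57141 ± 4256, SD, n = 3), which placed it at rank 37 to 38 of the listed miRNAs. In the same libraries miR-452-5p was at 31.72, 49.25 and 24.62 (35.2 ± 12.68, SD, n = 3). The normalized count is the number of reads divided by 1 size factor per library. Reads of miR-224-5p per read of miR-452-5p ran from 992.6 to 2626 over the 15 MEF libraries for this pair of neighbours in 1 intron. These are ratios of reads and not of molecules.

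The 3p arms were rare. The normalized counts of miR-224-3p were 0 to 6.361 over the 15 MEF libraries, from 0 to 6 reads each. Those of miR-452-3p were 0 to 14.28, from 0 to 13 reads each. Where a library had 0 reads, up to 3 counts remain possible: that allows 0.1721 RPM for miR-224-3p in 1 OV library and 0.1677 for miR-452-3p in 1 d/d library. The share of the 3p arm among reads of the mir-224 hairpin, summed over the 3 libraries of a group, was 0.00297% (OV) to 0.008006% (d/d + Empty).

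The share of the 3p arm was higher for the mir-452 hairpin in every MEF group. It was 23.53% in OV (28 reads against 91 of the 5p arm; Wilson 95% interval 16.81 to 31.9), 10.28% in fl/fl (5.838 to 17.48) and 8.333% in d/d (3.288 to 19.55). With Empty it was 11.26% (7.149 to 17.29) and with miR-290~295 it was 9.013% (5.971 to 13.38). These intervals cover counting error only.

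**Figure D2:**
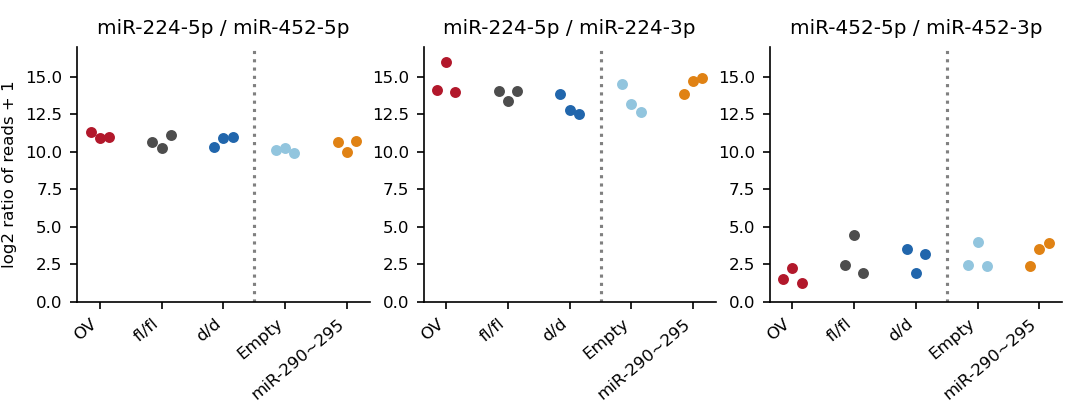
Ratios of reads between members in each of the 15 MEF libraries, as log2 of the ratio of reads + 1 on the y axis, for the groups on the x axis; each point is 1 library and the dotted line parts the 2 sets. The ratio of miR-224-5p to miR-452-5p lies between 9.923 and 11.31 in every library, and that of miR-224-5p to its own 3p arm between 12.55 and 15.98.

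In the 3 states of miR-17~92 both 5p arms were lowest in d/d MEF. In OV MEF miR-224-5p was at 70343, 74145 and 72841 (72443 ± 1932, SD, n = 3). In d/d MEF it was at 20849, 20695 and 19164 (20236 ± 931.6, SD, n = 3), rank 64 to 66. All 3 d/d libraries lay below, and all 3 OV libraries above, the 3 fl/fl libraries. As a description, the log2 difference of d/d from fl/fl was -1.50 ± 0.10 (SE), or 2.821-fold lower, and that of OV from fl/fl was 0.34 ± 0.10 (SE), or 1.27-fold higher. The groups failed to overlap in the higher direction for 24.5% of tested miRNAs in OV against fl/fl and in the lower direction for 33.1% in d/d against fl/fl. In bulk samples, fewer cells of a type and less RNA per cell cannot be told apart.

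Markers of other cell types also differed between these groups. The summed neural markers, 3 of 3 listed and nearly all miR-218-5p, were at 752.7 to 816.5 RPM in fl/fl, 217 to 241.9 in d/d and 444.9 to 605.1 in OV; the defining neuronal marker miR-124-3p was at 0 to 0.1148. The endothelial marker miR-126a-3p was at 102.4 to 112.5 in fl/fl, 54.85 to 56.8 in d/d and 96.55 to 111.9 in OV. The epithelial markers, 3 of 4 listed, summed to 10.29 to 10.85 in fl/fl, 1.966 to 3.137 in d/d and 3.665 to 4.268 in OV. Among them miR-200b-3p was at 7.861 to 8.114 in fl/fl and 0.5217 to 0.9326 in d/d, while miR-205-5p was at 0.1612 to 0.1721 and 0.4815 to 1.187. The 7 fibroblast markers summed to 236801 to 256352 in fl/fl, 287667 to 306076 in d/d and 213491 to 224593 in OV. Most of this sum was miR-21a-5p and miR-143-3p, and not every marker followed it. The defining miR-199a-3p was at 7930 to 9616 in fl/fl, 4525 to 6574 in d/d and 4676 to 8039 in OV. In the same order miR-214-3p was at 201.7 to 256.6, 199.1 to 268.8 and 183.6 to 249.2. For miR-31-5p the levels were 137.8 to 146.6, 199.2 to 272.4 and 144.4 to 230.7. The blood markers, 5 of 6 listed and nearly all miR-155-5p, summed to 404.5 to 435.7 in fl/fl, 218.8 to 333.3 in d/d and 305.7 to 529.1 in OV. The part of these markers in the levels of the members was not tested.

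The levels of miR-452-5p in OV MEF were 26.79, 36.62 and 35.15 (32.85 ± 5.306, SD, n = 3) and those in d/d MEF 15.64, 10.17 and 8.504 (11.44 ± 3.733, SD, n = 3). The d/d libraries lay below the fl/fl libraries without overlap, while the OV libraries lay within their range. Described without a test, d/d differed from fl/fl by -1.53 ± 0.32 (SE) on the log2 scale. In OV against fl/fl the log2 difference was -0.05 ± 0.32 (SE; 95% interval -0.77 to 0.67; limma, adjusted p = 0.896), which did not pass the threshold of 0.05, and its sign turned with spike-in scaling (0.08). The fl/fl libraries in that test are those used in choosing the members.

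Scaling by spike-ins, RNAs added to the samples as an outside reference, shifted all miRNAs together. In d/d against fl/fl it moved the median log2 difference of all miRNAs from 0.02 to -0.39, and that of miR-224-5p from -1.50 to -1.93. Relative to the median of all, miR-224-5p was at -1.51 without and -1.53 with spike-in scaling, and miR-452-5p at -1.54 and -1.53. For OV against fl/fl the value of miR-224-5p relative to the median was 0.42 without and 0.41 with it.

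The 3p arms of both hairpins fell under the minimum mean of 10 normalized counts and were fitted only without a minimum. The normalized counts of miR-452-3p were 8.928, 6.867 and 14.28 in OV, 5.116, 1.145 and 5.596 in fl/fl, and 0.7109, 2.179 and 0 in d/d. All 3 OV libraries were above the fl/fl libraries, but the log2 difference of 1.26 ± 0.58 (SE) did not pass the threshold (limma, adjusted p = 0.1704). For miR-224-3p the groups overlapped, at 2.976, 0 and 3.296 in OV and 2.046, 4.582 and 2.239 in fl/fl (log2 difference -0.56 ± 0.60, SE; limma, adjusted p = 0.573). In d/d it was at 0.7109, 2.179 and 2.126. At 0 to 13 reads per library, moderate differences of these arms were not detectable.

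Over all 662 miRNAs tested, 15.6% were called higher and 15.7% lower in OV than in fl/fl, and 30.7% were called higher and 27.6% lower in d/d than in fl/fl. Of the members, 2 of 4 were among those tested. In d/d against fl/fl nothing is read from these shares for the members, as that contrast chose them.

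**Figure D3:**
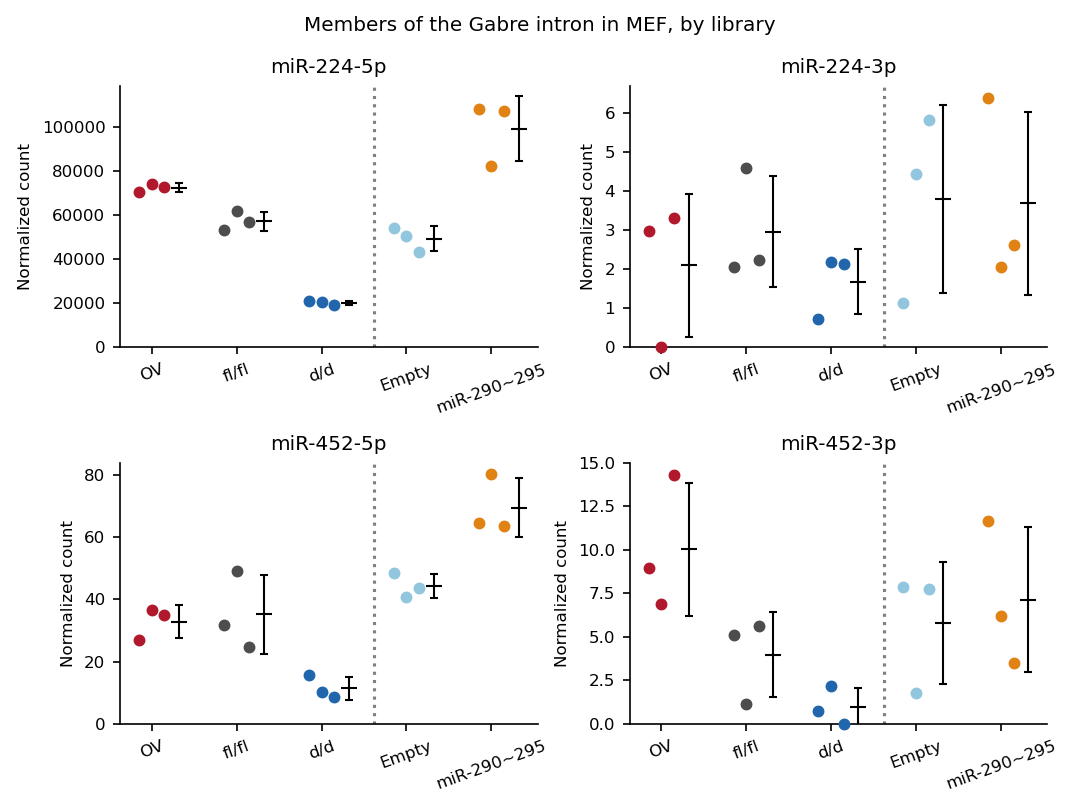
Normalized counts of the 4 members on the y axis, on a scale of its own in each panel, in the 5 MEF groups; each point is 1 library, the bar beside it is the mean ± SD of 3 libraries, and the dotted line parts the 2 sets, which were normalized separately. The d/d libraries of miR-224-5p (19164 to 20849) lie below the fl/fl libraries, and those with miR-290~295 (82271 to 107986) above those with Empty.

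Introduction of miR-290~295 into d/d MEF was the comparison not used in choosing the members. This cluster is the main miRNA cluster of mouse embryonic stem cells, and several of its products share the AAGUGC core of the seed with members of miR-17~92. The level of miR-224-5p rose: it was 54071, 50590 and 43332 with Empty (49331 ± 5479, SD, n = 3) and 107986, 82271 and 107285 with miR-290~295 (99181 ± 14648, SD, n = 3). Every library with miR-290~295 was above every library with Empty. The log2 difference was 1.00 ± 0.15 (SE; 95% interval 0.66 to 1.35), or 2.003-fold higher (limma, adjusted p = 0.00116 over 840 miRNAs). In this comparison 16.7% of the miRNAs were called higher and 22.3% lower, and 23.6% were higher without overlap, so a rise was not rare.

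With spike-in scaling the log2 difference of miR-224-5p was 0.52 ± 0.19 (SE), or 1.432-fold higher (limma, adjusted p = 0.0441), where 6.62% of miRNAs were called higher. That scaling moved the median of all miRNAs from 0.02 to -0.46. Relative to the median, miR-224-5p was 0.98 higher under either scaling. This sameness is built in, since spike-in scaling shifts all miRNAs of a library together, so it is not a second check. The rank of miR-224-5p was 70 to 75 with Empty and 49 to 50 with miR-290~295.

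The level of miR-452-5p was 48.36, 40.74 and 43.66 with Empty (44.25 ± 3.845, SD, n = 3) and 64.67, 80.43 and 63.65 with miR-290~295 (69.58 ± 9.408, SD, n = 3). The groups did not overlap, and the log2 difference was 0.64 ± 0.23 (SE; 95% interval 0.12 to 1.16), but it missed the threshold (limma, adjusted p = 0.0551). It passed without Empty sample E1 (adjusted p = 0.0463). With spike-in scaling the groups overlapped and the log2 difference was 0.16 ± 0.28 (SE; limma, adjusted p = 0.686).

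The 3p arms overlapped between these groups. The counts of miR-224-3p were 1.125, 4.428 and 5.821 with Empty and 6.361, 2.062 and 2.616 with miR-290~295 (log2 difference 0.02 ± 0.62, SE; limma without a minimum, adjusted p = 0.989). Those of miR-452-3p were 7.872, 1.771 and 7.761 with Empty and 11.66, 6.187 and 3.488 with miR-290~295 (0.31 ± 0.61, SE; adjusted p = 0.779). Both intervals, -1.35 to 1.38 and -1.03 to 1.65, include the rise of miR-224-5p.

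Ratios between members within a library do not depend on the scaling. The log2 ratio of miR-224-5p to miR-452-5p was 10.09 ± 0.1635 (SD, n = 3) with Empty and 10.45 ± 0.41 (SD, n = 3) with miR-290~295. The groups overlapped, and the difference of 0.37 did not exceed the spread between samples (two-sided exact permutation test, p = 0.3). The ratio of miR-224-5p to its 3p arm differed by 1.01 (exact permutation, p = 0.2) and that of miR-452-5p to its 3p arm by 0.32 (p = 0.9). With 3 samples against 3 this test cannot go below 0.1, and these 3 ratios were all that were tested.

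**Figure D4:**
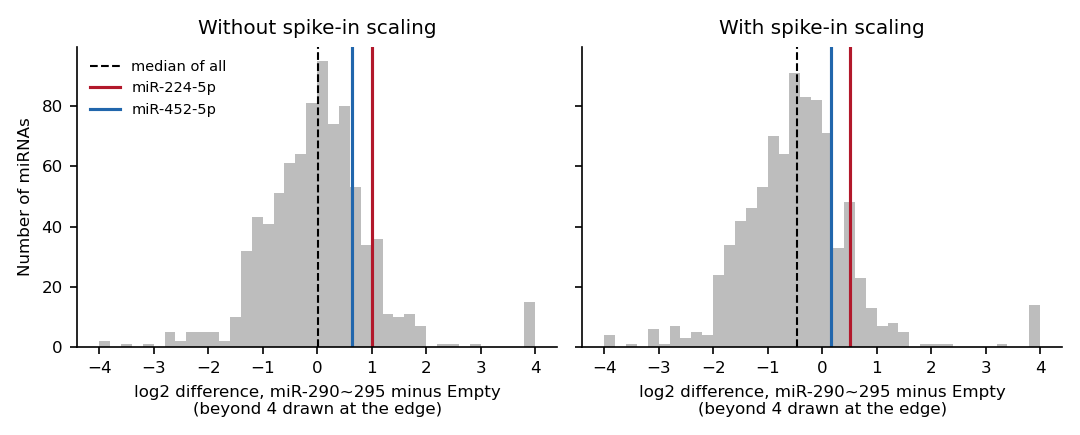
Number of miRNAs (y axis) by log2 difference of miR-290~295 from Empty (x axis), without and with spike-in scaling; values beyond 4 are drawn at the edge. Solid lines mark miR-224-5p (1.00 and 0.52) and miR-452-5p (0.64 and 0.16), and the dashed line is the median of all (0.02 and -0.46); both members lie to the right of the median in both panels.

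Most fibroblast markers moved against miR-224-5p in this comparison. Of the 7 markers 5 fell (limma): miR-199a-5p (log2 difference -0.46, adjusted p = 0.0187), miR-199a-3p (-0.61, 0.0397), miR-214-3p (-0.46, 0.0195), miR-143-3p (-0.92, 0.00152) and miR-145a-5p (-1.35, 0.0023). The sixth, miR-21a-5p, differed by 0.03 (adjusted p = 0.887), and miR-31-5p rose by 1.10 (adjusted p = 0.000593). With spike-in scaling miR-21a-5p was called lower too (-0.46, limma, adjusted p = 0.0246), and miR-31-5p stayed higher (0.61, 0.00957). Over all miRNAs 187 of 840 were called lower without and 331 of 846 with that scaling. The summed level of the 7 markers, mostly miR-21a-5p and miR-143-3p, was 227037 to 290085 RPM with Empty and 240779 to 268127 with miR-290~295.

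Among markers of other cell types, miR-218-5p rose by more than miR-224-5p. It was at 375.2 to 414.2 RPM with Empty and 1095 to 1333 with miR-290~295 (log2 difference 1.57 ± 0.13, SE; limma, adjusted p = 4.121e-05). It made up nearly all of the neural sum of 379.1 to 420.4 and 1101 to 1341 RPM, with 2 of 3 neural markers listed and miR-124-3p not among them. The endothelial miR-126a-3p was at 75.39 to 84.35 and 62.28 to 70.89. The epithelial markers, 3 of 4 listed, summed to 2.073 to 3.197 and 2.485 to 2.885. Within this sum miR-200b-3p was called higher (log2 difference 1.01, limma, adjusted p = 0.0238) and miR-205-5p lower (-2.33, 0.000276). The call of miR-200b-3p was lost with spike-in scaling (0.54, limma, adjusted p = 0.207), and that of miR-205-5p held (-2.79, 3.002e-05). The blood markers, 5 of 6 listed and nearly all miR-155-5p, summed to 293.3 to 406.2 and 295.2 to 396.6, while miR-142a-5p was at 0 to 0.08487 and 0 to 0.02199. The part of these markers in the rise of miR-224-5p was not tested.

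Across the 5 MEF groups, the order of miR-224-5p by share of reads was OV, fl/fl, miR-290~295, d/d and Empty. The levels were 3717 to 3857, 2791 to 3074, 1755 to 2280, 1008 to 1243 and 857.4 to 1114 RPM. The last 2, both d/d MEF, overlapped in range, and the others did not overlap with their neighbours. The sets were normalized separately, so this order is a description.

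In B cells only miR-224-5p of the 4 members was listed, among 756 miRNAs. The table holds miRNAs above a filter whose limit the labels do not state, so the other 3 have no value. It had 211 reads in d/d (exact Poisson 95% interval 183.5 to 241.5), 28 in fl/fl (18.61 to 40.47) and 24 in OV (15.38 to 35.71). These are 19.96, 2.638 and 2.352 RPM, against 857.4 or more in every MEF library. With 1 library per group there is no replicate check and no test.

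The d/d B-cell library held 6.346-fold more miR-224-5p than the fl/fl library by normalized count (counting interval 4.266 to 9.781), the opposite direction to MEF. Whether that table was scaled by spike-ins is not stated in the labels; in RPM, which does not depend on it, d/d was likewise the higher. Of 476 miRNAs with a mean of 10 or more, 16.2% were at least 2-fold higher in d/d, and 21 had a larger fold than miR-224-5p; the 2-fold limit was set after values were seen. The OV library was 1.218-fold higher than fl/fl by normalized count (counting interval 0.6758 to 2.179) but lower in RPM, so its direction turned with the scaling. RPM is a share of all listed reads, and the miR-17~92 products took 362982 RPM in OV and 125575 in fl/fl B cells.

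Fibroblast markers were higher in the same d/d B-cell library. All 7 of 7 were higher than in fl/fl, by 1.124-fold (miR-21a-5p) to 6.527-fold (miR-31-5p), with miR-199a-3p at 4.383-fold and miR-214-3p at 4.492-fold. The median fold of all 476 miRNAs with a mean of 10 or more was 0.9914. Among the 7, miR-21a-5p was itself abundant in B cells, at 24549 to 55212 RPM. Their sum was 56199, 41424 and 24692 RPM in d/d, fl/fl and OV, nearly all of it miR-21a-5p. The defining markers were low but not at 0: miR-214-3p was at 3.027, 0.5654 and 0.294 RPM and miR-199a-3p at 178.2, 34.11 and 26.85. Reads of miR-224-5p per read of miR-199a-3p were 0.112, 0.07735 and 0.08759 in B cells, 0.1891 to 0.2228 in d/d MEF and 0.318 to 0.352 in fl/fl MEF. Per read of miR-214-3p they were 6.594, 4.667 and 8 in B cells, from only 32, 6 and 3 reads of it. In d/d MEF they were 4.492 to 5.064 and in fl/fl MEF 10.88 to 15.24. Against d/d MEF the d/d B-cell library was therefore lower by 1 defining marker and higher by the other. The d/d library also differed in miR-150-5p (0.1404-fold of fl/fl) and in the neural markers miR-218-5p (7.038-fold) and miR-9-5p (0.06812-fold). The other blood markers did not all follow miR-150-5p. They were at 1.06-fold (miR-142a-5p), 0.9913-fold (miR-142a-3p), 0.7863-fold (miR-155-5p) and 1.883-fold (miR-451a), and miR-223-3p had 20 reads in d/d and 0 in fl/fl. The part of these markers in the level of miR-224-5p was not tested.

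**Figure D5:**
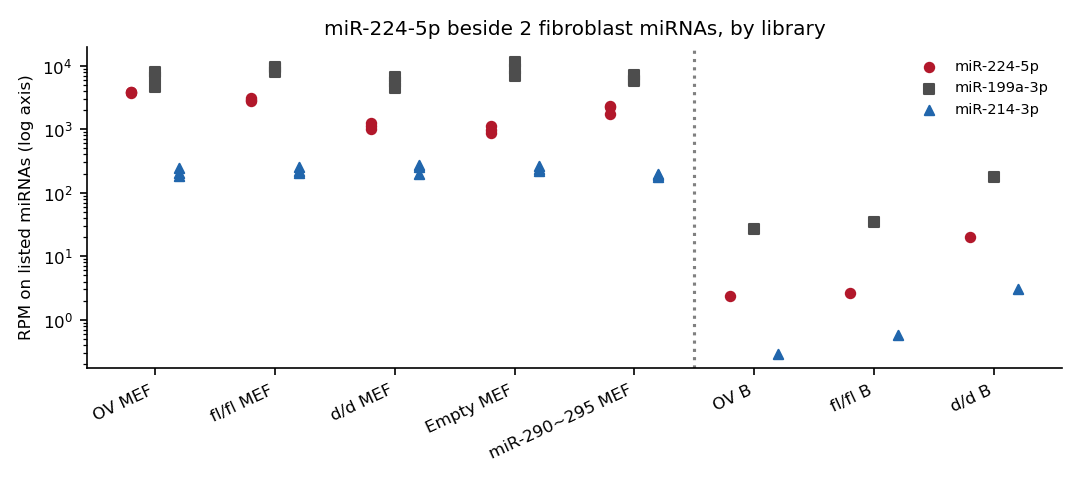
RPM (log y axis) of miR-224-5p and of the fibroblast markers miR-199a-3p and miR-214-3p in the 8 groups; each point is 1 library and the dotted line parts MEF from B cells (B). In B cells all 3 miRNAs are highest in the d/d library, with miR-224-5p at 19.96 against 2.638 in fl/fl.

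The miRNAs with the pattern most like that of miR-224-5p were sought over the 9 libraries of the first MEF set, as the smallest root mean square difference between log2 profiles centred on their own means. Among 650 miRNAs measured in both MEF sets the median difference was 0.8868. The nearest 5 were miR-672-5p (0.2129), which is also encoded on chromosome X, let-7k (0.2299), miR-139-5p (0.2504), miR-3970 (0.278) and miR-192-5p (0.2851), which is known as a p53-responsive miRNA. The neighbour miR-452-5p ranked 10 (0.3339).

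These 5 were less alike in the second set. Over its 6 libraries, where the median was 0.6106, miR-672-5p ranked 123 (0.3602), and miR-452-5p ranked 81 (0.313). The level of miR-672-5p was 132.6 ± 48.86 (SD, n = 3) with Empty and 372.4 ± 16.17 with miR-290~295, a rise of 1.55 ± 0.26 (SE) on the log2 scale (limma, adjusted p = 0.00195). The other 4 had log2 differences of 0.10 (miR-139-5p) to 0.43 (let-7k) that did not pass the threshold (limma, adjusted p = 0.322 to 0.882).

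The X-linked miRNAs other than the members were taken as a list of 145 mature miRNAs by RefSeq. This list is not complete: it lacks miR-222-5p, miR-676-5p, miR-421-3p and miR-532-5p, although it holds their other arms. In OV against fl/fl 42 miRNAs of the list were tested. Of these 10 were higher, 4 lower and 28 did not pass, with a median log2 difference of 0.28 against -0.07 for all. With spike-in scaling, where 112 of all 665 miRNAs were called higher and 44 lower, 10 of the list were higher and 0 lower. The miRNAs of smallest adjusted p were miR-676-3p (1.43 ± 0.16, SE; limma, adjusted p = 0.000164) and miR-503-5p, a miR-16 family relative (1.10 ± 0.17; 0.0018), among those higher. Among those lower they were miR-98-5p, a let-7 family member (-0.44 ± 0.11; 0.0139), and miR-221-5p (-0.66 ± 0.17; 0.016).

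In d/d against fl/fl 4 of the 42 X-linked miRNAs were higher and 18 lower, with a median of -0.40 against 0.02 for all. The lower ones of smallest adjusted p were miR-547-3p, at 2.613 in d/d and 54.58 in fl/fl (limma, adjusted p = 2.341e-05), and miR-106a-5p, at 2.622 and 36.05 (adjusted p = 0.000236). The sequence of miR-106a-5p is close to that of miR-17-5p, and how the counting parted their reads is not stated in the labels. Of the 4 higher, those of smallest adjusted p were miR-322-5p (0.97 ± 0.21, SE, limma, adjusted p = 0.0027) and miR-351-3p (0.68 ± 0.17, 0.00653). With spike-in scaling 0 of the 42 were higher and 27 lower. Over all 665 miRNAs tested with that scaling 147 were called higher and 283 lower, with a median of -0.39.

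With miR-290~295, 6 of 55 X-linked miRNAs tested were higher and 14 lower, with a median of -0.30 against 0.02 for all. The higher ones of smallest adjusted p were miR-221-5p (1.17 ± 0.13, SE; limma, adjusted p = 0.000156) and miR-221-3p (1.18 ± 0.14; 0.000263). They are the arms of 1 hairpin, of which the 3p arm is known to target p27. Of the 14 lower, those of smallest adjusted p were miR-881-3p (-3.11 ± 0.50, limma, adjusted p = 0.00144) and miR-871-3p (-2.76 ± 0.45, 0.00158). Both were low, at normalized counts of 3.148 and 1.922 with miR-290~295 against 32.48 and 18.64 with Empty. With spike-in scaling, where 56 of all 846 miRNAs were called higher and 331 lower, 4 of the list were higher and 30 lower.

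The list of 13 miRNAs reported to be induced by TGF-beta in some cell type was measured in full. In OV against fl/fl 2 were higher, 3 lower and 8 did not pass. The median was -0.01, and 0.13 with spike-in scaling, while that of all miRNAs moved from -0.07 to 0.07. Those higher were miR-27a-3p (0.67 ± 0.13, SE; limma, adjusted p = 0.00382) and miR-24-3p (0.34 ± 0.12; 0.0447), and among those lower were miR-182-5p (-1.13 ± 0.12; 0.000131) and miR-199a-5p (-0.62 ± 0.11; 0.00302).

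In d/d against fl/fl 1 of the 13 was higher, miR-494-3p at 3346 ± 446.6 against 581.3 ± 15.04 (SD, n = 3; limma, adjusted p = 9.788e-05). In the same comparison 5 were lower, among them miR-192-5p (-1.04 ± 0.11, SE; 2.595e-05) and miR-23a-3p (-0.75 ± 0.20; 0.00822), and the median was -0.29. With spike-in scaling 9 were lower and the median was -0.72, and re-centred on the median 8 were lower (-0.57). Over all miRNAs the medians were 0.02, -0.39 with spike-in scaling and -0.27 re-centred. Of all miRNAs 283 of 665 were called lower with spike-in scaling, and 245 of 662 re-centred. With miR-290~295, 2 of the 13 were higher and 5 lower, with a median of -0.16 against 0.02 for all. With spike-in scaling, where 56 of all 846 miRNAs were called higher and 331 lower, 0 of the 13 were higher and 10 lower. The median of the list was then -0.64 against -0.46 for all. The higher ones were miR-27a-3p (0.58 ± 0.15; 0.013) and miR-24-3p (0.35 ± 0.12; 0.0401, and -0.13 with spike-in scaling), and the lower ones of smallest adjusted p were the smooth muscle miRNAs miR-143-3p (-0.92 ± 0.15; 0.00152) and miR-145a-5p (-1.35 ± 0.24; 0.0023). The OV and d/d comparisons share the fl/fl libraries.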

How the data were processed

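The deposited tables give normalized read counts per mature miRNA; the values are a signal that the authors made by dividing reads by 1 size factor per library, and DESeq2 is named, without a version, in the submitters' processing notes. Per the labels' protocols, small RNAs were gel-purified from total RNA with spike-ins added and prepared with the NEBNext small RNA kit. The aligner, counter, genome build and low-count filter are nowhere named in the sources used. Each MEF set came with and without spike-in scaling; 33 columns of transformed values were not used. Whole reads were recovered from 100% of values within 0.0001, which gave depth.

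Differences were fitted with limma 3.58.1 (R 4.3.3) on log2(normalized count + 1), with a trend and group as the only term, for miRNAs with a mean of at least 10, in the tables without spike-in scaling. That scale understates changes of low miRNAs. P-values were adjusted by Benjamini-Hochberg over all tested miRNAs, with a threshold of 0.05. edgeR 4.0.16 on recovered reads was an alternative, and limma was tested on simulated data. Hairpins were folded with RNAfold 2.7.2.

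OV and fl/fl MEF columns were matched to their group and not to a replicate. The members and lists were chosen with earlier results of these data known. Besides the members, the named miRNAs are the 5 nearest to miR-224-5p and, per list and comparison, the 2 with the smallest adjusted p in each direction. RefSeq had an entry for 1016 and 1064 of the miRNAs listed in the 2 MEF sets.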

Additional observations from a re-analysis of the deposited data

Results flagged for a closer look

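The log2 difference of miR-224-5p between d/d and fl/fl was -1.50 in MEF and 2.67 in B cells, so all 3 d/d MEF libraries lay below fl/fl while the single d/d B-cell library lay above. The difference between the cell types was not tested, since there was 1 B-cell library per group. In the d/d B-cell library 7 of 7 fibroblast markers were also higher, where the median fold of all 476 miRNAs with a mean of 10 or more was 0.9914. The part of these markers was not tested.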

How the results depend on the processing

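The call of miR-224-5p as higher with miR-290~295 held under all 14 alternatives (log2 difference 0.52 to 1.13, adjusted p 0.000842 to 0.0441). Other pseudocounts, other minima and the replicate number as a block left the difference at 1.00, so they varied only its test. The lowest difference and the highest adjusted p came with spike-in scaling. The difference of miR-452-5p stayed positive under all 13 (0.16 to 0.70); leaving out each sample gave 0.53 to 0.70, and only without E1 was it called (adjusted p = 0.0463). In OV against fl/fl, miR-452-5p reversed with spike-in scaling (0.0793), without OV1 (0.0839) and without FL4 (0.21), in a leave-one-out range of -0.27 to 0.21. Calls in that comparison numbered 207, and 124 to 233 when each sample was left out, lowest without FL5. Calls were 386 in d/d against fl/fl (272 to 430 over all alternatives) and 327 with miR-290~295 (224 to 387 over all alternatives). The 272 came with a minimum mean of 100, where 376 miRNAs were tested against 662 in the main fit. edgeR called 182 in OV, 391 in d/d and 327 with miR-290~295. The split of higher to lower calls moved with scaling: 103 to 104, 112 to 44 with spike-ins and 83 to 153 re-centred on the median in OV; 203 to 183, 147 to 283 and 162 to 245 in d/d; 140 to 187, 56 to 331 and 107 to 211 with miR-290~295. The cause was not tested.

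With the replicate number as a block, 298 miRNAs were called with miR-290~295 (adjusted p = 0.00226 for miR-224-5p, 0.1 for miR-452-5p). Same-numbered samples correlated at 0.28, 0.01 and -0.26, not every sample correlated best with its own number, and they share only a number. In the first MEF set no paired analysis was possible because the OV and fl/fl columns carry other numbers than the titles, and only the d/d columns match theirs. Members at 0 to 13 reads per library limit what can be seen of the 3p arms.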
